A study of Mus musculus with 12 samples.

Results

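The response of zinc-loaded mouse liver to the synthetic glucocorticoid dexamethasone (Dex) was described from 6 of the 12 livers of the series. The rule took the 3 zinc-Dex and the 3 zinc-PBS livers and every gene that reached 10 counts in 3 or more of the 12 libraries, which left 13255 of 54838 genes. All 6 were C57BL/6J mice, which the methods give as 8 to 14 weeks old and, where purchased, female, and all 6 drank water with 25 mM ZnSO4 for 7 days. The zinc-Dex mice were then injected with 200 µg Dex and the zinc-PBS mice with PBS, and liver was sampled 2 h later. The question of this comparison is what the glucocorticoid changes in liver when zinc is present in both groups. The other 6 livers came from mice on plain water, given PBS (water-PBS) or the same dose of Dex (water-Dex). They entered the gene filter, the scaling and the spread estimated in the main fit, and so its p-values. Otherwise they are used below to compare the size of the Dex effect. The labels do not say whether replicates came from separate cages or days, so the p-values measure the spread between the 12 mice alone.

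Dex binds the glucocorticoid receptor, a transcription factor that rests in the cytoplasm with heat shock proteins and moves to the nucleus once it holds its ligand. There it binds short palindromic DNA elements and raises transcription of nearby genes, and it also lowers transcription driven by inflammatory factors such as NF-κB and AP-1. In liver the receptor is known for raising gluconeogenesis and amino acid breakdown and for its anti-inflammatory effect. Zinc itself acts on liver genes through the metal-sensing factor MTF1, which drives the metallothionein genes.

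Total counts of the 6 libraries lay between 10942890 and 12303527. Pearson's r of log2 normalized counts between replicates of a group was 0.985 to 0.988 across genes, which are not independent replicates. Hepatocyte markers were abundant. Albumin mRNA alone held 9.94% to 11.1% of the counts of each library, and all 8 listed hepatocyte markers were measured. The lowest r, 0.9849, was between zinc-Dex replicates 1 and 2. Pairs with zinc-PBS replicate 1 had 0.9869 and 0.9856, so r did not set that library apart. By single genes, the library that stood apart was zinc-PBS replicate 1. Of 9567 genes whose mean reached 50 normalized counts, 45 lay more than 2-fold above both other zinc-PBS livers, against 3 to 13 such genes in each of the other 5 libraries. Results that rest on this liver are given with and without it. Levels below are normalized read counts, given for replicates 1, 2 and 3 in that order, with n = 3 mice per group.

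Calls required both a log2 fold change beyond 0.8 in size and an adjusted p below 0.05 in the DESeq2 Wald test, which gave every adjusted p printed for a gene. Signed values beside a gene are log2 fold changes of zinc-Dex over zinc-PBS unless named otherwise. Zinc-Dex differed from zinc-PBS in 1480 of 13255 genes, or 11.2%. Of these, 756 were higher with Dex (5.70% of the genes tested) and 724 lower (5.46%). Without zinc-PBS replicate 1 the counts were 778 higher (5.87%) and 675 lower (5.09%). Counts of calls in the gene lists below are to be read against these shares. The lists were chosen with earlier results of these data known, so their counts and medians are descriptions and no test. The increases reached further than the decreases. More than 8-fold increases were seen for 74 called genes and more than 8-fold decreases for 32, and 32 and 8 genes passed 16-fold. Among the calls, 29 higher and 14 lower had no library above 3 reads in 1 of the groups, so their folds are poorly measured. The groups did not overlap for 1456 of the 1480 called genes, and they did not overlap for 5519 genes in all, 41.6% of those tested (21.4% higher and 20.3% lower). At any fold, 3222 genes (24.3%) had an adjusted p under 0.05. For a single gene, exact permutation of 3 mice against 3 cannot give a two-sided p under 0.10, so a call rests on the spread that DESeq2 shares across genes. Scaling to total counts, added after seeing the data, shifted the median of all genes by -0.23 on the log2 scale and gave 562 genes higher and 1292 lower, so the share of higher genes among the calls fell from 51.1% to 30.3%. Changes are therefore relative to the median gene. In whole liver, fewer cells of a type and less RNA per cell cannot be told apart.

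**Figure D1:**
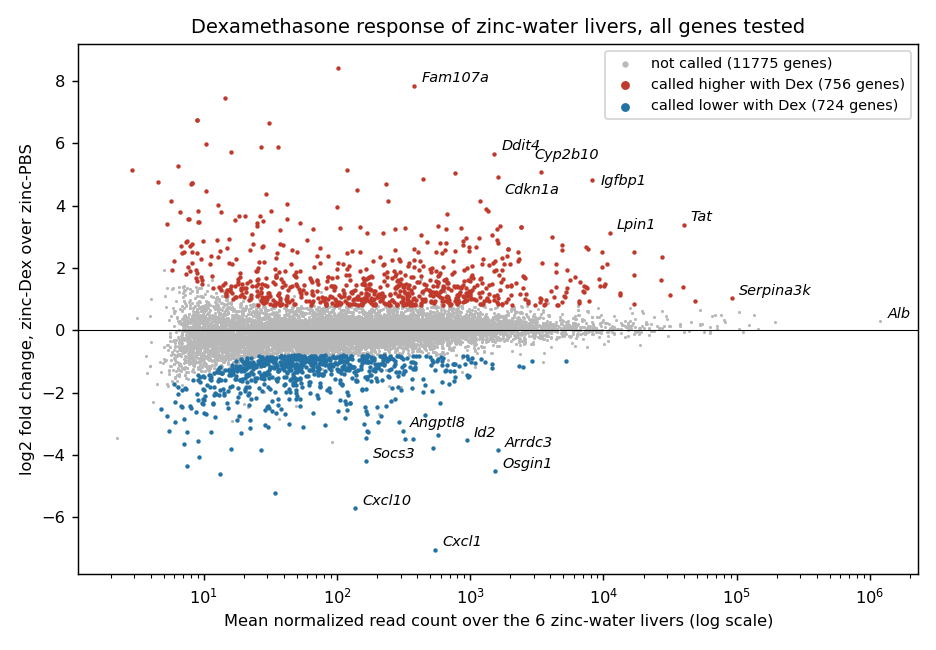
Mean normalized read count over the 6 zinc-water livers (log axis) against the log2 fold change of zinc-Dex over zinc-PBS for each gene tested, with called genes in colour. The 756 genes called higher spread up to a log2 fold change of 8.42 and the 724 called lower down to -7.05, while albumin, at the far right, lies at 0.29.

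The largest increases included genes near silence in zinc-PBS liver. *Gm19439*, annotated as a transcript still to be experimentally characterised (ENSMUSG00000105843, chromosome 3, 88030878 to 88033150), had 0, 1 and 1 reads in the zinc-PBS libraries and 217, 187 and 209 normalized counts with Dex, at least 75.9-fold higher when set against 3 reads per library. *Fam107a* (ENSMUSG00000021750, chromosome 14, 8296274 to 8318023), which encodes an actin-binding protein, stood at 4.53, 2.63 and 2.72 normalized counts in zinc-PBS and at 776, 754 and 746 in zinc-Dex (log2 fold change 7.85, SE 0.452, adjusted p 6.15e-65). The 3 zinc-Dex values lay within a narrow band far above every zinc-PBS value. *Ddit4* (ENSMUSG00000020108, chromosome 10, 59949669 to 59951834), an inhibitor of mTORC1, had 45.3, 69.3 and 60.7 and then 3322, 2892 and 2732 (log2 fold change 5.67, SE 0.21, adjusted p 8.87e-157). *Cdkn1a* (ENSMUSG00000023067, chromosome 17, 29090976 to 29100727), the p21 cell cycle inhibitor, had 150.3, 80.7 and 77.9 and then 3204, 3649.6 and 2455 (log2 fold change 4.91, SE 0.34, adjusted p 4.78e-45). In neither gene did any zinc-Dex liver come near the zinc-PBS range.

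The estrogen sulfotransferase gene *Sult1e1* varied more, with 6.34, 9.64 and 3.62 normalized counts in zinc-PBS and 462, 79 and 154 in zinc-Dex (log2 5.15, SE 0.808). Its zinc-Dex replicate 1 was the highest and replicate 2 the lowest, and all 3 were above the zinc-PBS livers. *Gm43305*, annotated as a processed transcript, was uneven as well, at 88.8, 37.7 and 8.15 in zinc-PBS and 825, 2786 and 868 in zinc-Dex (log2 5.06, and 6.02 without zinc-PBS replicate 1). Steadier increases were those of *Phf11c*, a PHD finger gene (35.3, 25.4 and 28.1, then 869, 856 and 851), and of *Mdm1*, which encodes a centriole protein (9.96, 17.5 and 23.6, then 593, 313 and 434). Among the other large increases were *Igfbp1*, *Cyp2b10*, *Ciart*, *Plin4*, *Gadd45g* and *Lcn2*, described below, and *Dusp14*, a dual-specificity phosphatase gene (log2 3.95).

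The 2 largest decreases among the genes named here were of chemokine genes. *Cxcl1* (ENSMUSG00000029380, chromosome 5, 90891241 to 90893115), a neutrophil-attracting chemokine, had 3031, 50.9 and 163 normalized counts in zinc-PBS and 10.9, 8.9 and 4.81 in zinc-Dex (log2 fold change -7.05, SE 1.21, adjusted p 1.1e-07). *Cxcl10*, an interferon-inducible chemokine, had 696, 40.3 and 70.7 and then 2.18, 4.45 and 8.65 (log2 -5.71). For both, the groups did not overlap, but zinc-PBS replicate 1 lay far above the other zinc-PBS livers, and without it the log2 fold changes were -3.72 (adjusted p 1.59e-10) and -3.41 (6.42e-10).

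Other large decreases were of genes that were not high in that liver alone. *Osgin1* (ENSMUSG00000074063, chromosome 8, 119434124 to 119446256), an oxidative stress-induced growth inhibitor, had 3356, 2070.1 and 3422 normalized counts in zinc-PBS and 70.7, 173 and 140.4 in zinc-Dex (log2 fold change -4.53, SE 0.366, adjusted p 4.15e-33). *Arrdc3* (ENSMUSG00000074794, chromosome 13, 80883384 to 80896042), an alpha-arrestin, had 2272, 2871 and 3874 and then 219, 227 and 181 (log2 -3.85), and its value without zinc-PBS replicate 1 was -4.01. *Id2* (ENSMUSG00000020644, chromosome 12, 25093799 to 25097140), an inhibitor of helix-loop-helix transcription factors, had 1955, 1729.9 and 1508 and then 148, 145 and 157 (log2 -3.53). The groups were far apart for all 3 genes, with close zinc-Dex values for *Arrdc3* and *Id2* and a wider spread for *Osgin1*. *Pde4b*, a cyclic AMP phosphodiesterase (log2 -3.44), *Foxq1*, a forkhead factor (-3.26), *Hhex*, a homeobox factor (-3.50), and *Rnf186*, a ubiquitin ligase (-3.11), were lower too. *Hhex* was uneven in zinc-PBS, at 294, 1000.4 and 738, against 52.2, 46.7 and 80.8 in zinc-Dex.

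The receptor's own gene and its classical targets were examined next. *Nr3c1*, which encodes the glucocorticoid receptor, had 1278, 1363 and 1211 normalized counts in zinc-PBS and 828, 857 and 918 in zinc-Dex, with no overlap (log2 -0.56, adjusted p 6e-11), and stayed under the fold change threshold. None of the 12 tested genes for the receptor, its chaperones and steroid handling was called. *Fkbp4*, a co-chaperone of the receptor, had a log2 fold change of -0.51 (adjusted p 0.00147), and *Hsd11b1*, which regenerates active glucocorticoid in liver, one of 0.19 (0.0252). Of the 20 listed target genes, 17 were called higher and 0 lower, and their median log2 fold change was 2.29 against -0.01 over all genes tested. This count was 17 without zinc-PBS replicate 1 and 16 with scaling to total counts.

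*Fkbp5* encodes a co-chaperone that dampens the receptor and is a common readout of its activity. It stood at 1495, 1085 and 1209 normalized counts in zinc-PBS and at 8334, 8691 and 8265 in zinc-Dex (log2 fold change 2.74, SE 0.203, adjusted p 1.81e-39). *Tsc22d3*, which encodes the anti-inflammatory protein GILZ, had 568, 647 and 607 and then 3362, 3153 and 2965 (log2 2.38). *Sgk1*, a kinase that acts on ion channels, had 268, 251 and 275 and then 2043, 2057 and 2078 (log2 2.96). In these genes the replicates of each group lay close together and far from the other group. *Dusp1*, a phosphatase that switches off p38 and JNK, had 112, 93.8 and 171 and then 817, 1192 and 1578 (log2 3.25). *Per1* was a weak member, with 203, 189 and 108 and then 260, 252 and 387 (log2 0.85, adjusted p 0.0149), and its call was lost when any 1 of the 6 libraries was left out. The 3 targets not called were *Zbtb16* (log2 1.22, adjusted p 0.131), *Klf9* (0.41, 0.0541) and *Pik3r1* (0.35, 0.0757). *Zbtb16* had 714, 318 and 126 in zinc-PBS and 1040.2, 826 and 837 in zinc-Dex, and it was called without zinc-PBS replicate 1 (log2 2.02, adjusted p 0.00175) and with the replicate block (1.49).

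Promoter sequence was read for the tested genes that RefSeq (GRCm38.p6) lists, as windows from 250 bases before to 50 bases after each transcription start. A window was available for 9899 of the 13255 genes, among them 563 of the 756 called higher and 537 of the 724 called lower. The receptor's element consists of paired half-sites, and the letters GNACANNNTGTNC, which read the same on both strands, were searched. They were present in a window of 9 of the 563 genes called higher (1.6%), of 1 of the 537 called lower (0.186%) and of 42 of all 9899 genes (0.424%). Over the whole table, 0.475% of the 32851 windows held them. A match is a description of the letters and not a binding site, and no match says only that the letters are not in this window. Matches in called genes are shown for those described elsewhere in the text, with *Map3k6* and the 1 lowered gene, and not for *Slc10a6*, *Galnt11* and *Gm16573*, which were called higher too. They let the letters be compared between strong and weak responders, each as 30 bases on the gene's strand, with the matched letters in capitals.
Fam107a: ggtggcttGGACATGGTGTTCtgagtctcg
Map3k6: gaatagggGCACAGGCTGTTCcggaagtgg
Sgk1: tgcggaaaGAACAGAATGTTCtcggagatt
Mt1: cactatagGGACATGATGTTCcacacgtca
Serpina3n: agcacagaGCACAGCTTGTCCatgccagca
Txnip: cgctaggaGCACACCGTGTCCacgcgcccc
Acnat2: acaaagcaGAACACAATGTTCtcttccaat

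These windows lie at chr14:8309876-8309905 (minus strand) for *Fam107a*, chr4:133240629-133240658 (plus) for *Map3k6*, chr10:21993694-21993723 (plus) for *Sgk1* and chr8:94178987-94179016 (plus) for *Mt1*. Those of *Serpina3n*, *Txnip* and *Acnat2* lie at chr12:104406622-104406651 (plus), chr3:96557777-96557806 (plus) and chr4:49408231-49408260 (minus). The centre of the match was 182 bases before the start in *Sgk1* and 88 bases before it in *Mt1*. The log2 fold changes of these genes ran from 7.85 for *Fam107a* and 3.29 for *Map3k6*, a stress-activated kinase gene, through 2.96 for *Sgk1*, to 1.41 for *Mt1*, 1.39 for *Serpina3n* and 0.86 for *Txnip*. *Acnat2*, which encodes an acyl-CoA N-acyltransferase, held the letters and fell, from 704, 728 and 1014 to 510.3, 369.5 and 347 normalized counts (adjusted p 0.000128). *Ddit4*, *Fkbp5*, *Tsc22d3* and *Tat* held no match in their windows.

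Some genes of glucose production rose and others were not called. *Pck1*, the cytosolic PEPCK enzyme that commits carbon to gluconeogenesis, had 14119, 6492 and 6454 normalized counts in zinc-PBS and 48662, 47399.5 and 43142 in zinc-Dex (log2 fold change 2.36, SE 0.438, adjusted p 1.01e-06). Zinc-PBS replicate 1 was again the highest of its group, and the value without it was 2.84. Of 15 tested genes of gluconeogenesis and glucose export, 6 were called higher and 0 lower, with a median log2 of 0.65, and without zinc-PBS replicate 1 the count was 5. *Ppargc1a*, a coactivator of gluconeogenic genes, had 184, 103 and 130.5 and then 296, 230.4 and 220.2 (log2 0.84), a call lost in 4 of 15 other fits, and *Foxo1*, a transcription factor restrained by insulin, had 529, 456 and 424 and then 1213, 1213 and 1236 (1.38). *G6pc*, the glucose-6-phosphatase that releases free glucose, was not called, with 831, 540.1 and 1000.2 and then 954, 1422 and 841 (log2 0.44, adjusted p 0.386), and its groups overlapped. Genes that restrain or favour glucose use were among the 6 as well. *Pdk4*, which shuts pyruvate dehydrogenase, had 150.3, 76.3 and 127 and then 819, 1201 and 483 (log2 2.82). *Pfkfb3*, which makes a glycolytic activator, rose by log2 1.86.

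Amino acid breakdown gave some of the most abundant changed transcripts. *Tat*, tyrosine aminotransferase, had 8217, 6399 and 6179 normalized counts in zinc-PBS and 84172, 69843 and 65107 in zinc-Dex (log2 fold change 3.40, SE 0.162, adjusted p 9.95e-95). *Tdo2*, which opens the breakdown of tryptophan, had 14639, 14659 and 10489.9 and then 46387, 38454 and 37099.7 (log2 1.62). Serine dehydratase *Sds* rose from 805 ± 115 to 3729.6 ± 220 (mean ± SD, log2 2.21). The replicates did not overlap between groups in any of the 3. In all, 7 of 26 tested genes of amino acid breakdown and the urea cycle were called higher and 0 lower, the others being the transaminase genes *Got1* (from 2765 ± 378 to 8409 ± 1201 normalized counts) and *Gpt2* (1.23), the lysine-degrading *Aass* (1.25) and the urea cycle gene *Asl* (0.87, lost in 2 of 15 other fits). *Cps1*, *Otc*, *Ass1* and *Arg1* of the urea cycle were not called, with log2 fold changes of 0.46, 0.00, 0.46 and 0.24. Of 15 tested amino acid transporters, 3 were called higher. *Slc38a2*, a neutral amino acid carrier, had 1661, 1333 and 1173 and then 8179, 8755 and 8252 (log2 2.60), *Slc25a15*, the mitochondrial ornithine carrier, rose by 2.03, and *Slc7a2*, a carrier of cationic amino acids, by 1.47. *Slc1a4*, another neutral amino acid carrier, was called lower (-0.80), and its call was lost in 5 of 15 other fits.

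Genes of insulin signalling and of the brakes on mTOR were mostly called higher where they were called. Of 22 tested, 8 were called higher and 1 lower, and without zinc-PBS replicate 1 these counts were 10 and 1. *Igfbp1*, a secreted binding protein of insulin-like growth factors, had 766, 122 and 778 normalized counts in zinc-PBS and 19754, 16049 and 11417 in zinc-Dex (log2 fold change 4.82, SE 0.924, adjusted p 2.47e-06). Its zinc-PBS replicate 2 was lower than the other 2, and all 3 zinc-Dex livers were far above them. The sestrin genes *Sesn1* and *Sesn2*, mTORC1 inhibitors, rose by 1.66 and 1.47, *Trib3*, an Akt inhibitor, by 1.32, and *Foxo3*, a forkhead factor, by 1.21. *Irs1*, an adaptor of the insulin receptor, fell, with 89.7, 105 and 144 and then 50, 44.5 and 34.6 (log2 -1.40). *Irs2* had 408, 179 and 397 and then 163, 149 and 92.3 and was not called (log2 -1.28, adjusted p 0.0837).

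Lipid genes moved in both directions. Of 19 tested genes of lipolysis and lipid droplets, 7 were called higher and 2 lower. *Lpin1*, a phosphatidate phosphatase and coactivator, had 4139, 1569 and 1133 normalized counts in zinc-PBS and 20818, 19684 and 19673 in zinc-Dex (log2 fold change 3.14, SE 0.532, adjusted p 6.59e-08), and 3.89 without zinc-PBS replicate 1. The droplet coat genes *Plin5* (495, 366 and 459, then 4965, 4302 and 3926, log2 3.32) and *Plin4* (31.7, 21 and 24.5, then 434, 426 and 505, log2 4.15) rose, and the lipase *Pnpla2* rose by 1.23. Its inhibitor *G0s2* had 178, 253 and 443 and then 77.2, 158 and 65.4 and was called lower (log2 -1.54, adjusted p 0.0284), a call lost in 5 of 15 other fits. *Angptl8*, an insulin-induced inhibitor of lipoprotein lipase, had 454, 549 and 679 and then 60.9, 61.2 and 58.7 (log2 -3.22), and its relative *Angptl4* rose (log2 1.64). The 2 angiopoietin-like genes moved in opposite directions, with no overlap between the groups in either.

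Of 18 tested fatty acid synthesis genes, 2 were called higher and 1 lower, or 5 and 1 without zinc-PBS replicate 1. Over all genes tested, 5.70% were called higher and 5.46% lower. *Srebf1*, which encodes the lipogenic factor SREBP1, had 1269.8, 1464 and 1437 normalized counts in zinc-PBS and 481, 575 and 488 in zinc-Dex (log2 -1.43). *Insig2*, which holds SREBP proteins in the endoplasmic reticulum, had 1975, 2081 and 2011 and then 14918, 14466 and 8969.9 (log2 2.66), and *Thrsp*, a lipogenic protein, rose by 2.60. *Fasn* and *Acaca* were not called (log2 -0.02 and 0.01). In fatty acid oxidation, 5 of 20 tested genes were called higher and 1 lower. The thioesterase *Acot1* rose by 2.24 and its relative *Acot3* fell (-1.30), while the omega-hydroxylases *Cyp4a14* and *Cyp4a10* rose by 1.20 and 0.93. The call of *Acot3* was lost in 4 of 15 other fits and that of *Cyp4a10* in 2. *Acot1* and *Acot3* are close copies, and counting excluded reads that mapped to more than 1 place, so their levels are less certain. No gene of the 15 in the bile acid list was called, or 1 higher without zinc-PBS replicate 1, with *Cyp7a1*, the rate-limiting enzyme, at 1657, 3765 and 4432 and then 3765, 1082 and 2386.

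Xenobiotic response genes, classed as targets of the nuclear receptors CAR and PXR, rose in 6 of 17 cases with 0 lower. *Cyp2b10* (ENSMUSG00000030483, chromosome 7, 25897620 to 25926624), the classical CAR target, had 191, 241 and 152 normalized counts in zinc-PBS and 8777, 5246 and 5923 in zinc-Dex (log2 fold change 5.09, SE 0.213, adjusted p 7.62e-123). *Alas1*, the first enzyme of heme synthesis, had 1930.1, 4683 and 2029 and then 15175, 13089 and 21449 (log2 2.52). *Por*, the electron donor of P450 enzymes, had 4511, 3302 and 3766 and then 10297, 9747 and 10896 (log2 1.42), and *Gstm3*, a glutathione transferase, rose by 1.45. The groups did not overlap for *Cyp2b10*, *Alas1* or *Por*. *Cyp3a11*, the main CYP3A enzyme of mouse liver, rose from 33345 ± 4839.8 to 64426 ± 6569 (log2 0.95), and by 0.72 on the log2 scale with scaling to total counts, under the threshold. *Fmo5*, a flavin monooxygenase outside the list, was among the 10 called genes with the most counts, with 5657, 5371 and 4305 and then 29594, 29333 and 27981 (log2 2.50). The other such genes were *Serpina3k* (1.03), *Mug1* (1.14) and *Acsl1* (0.86), besides *Cyp3a11*, *Tat*, *Hp*, *Pck1*, *Tdo2* and *Errfi1*. The calls of *Serpina3k* and *Mug1* were lost without zinc-Dex replicate 2, which was the highest for both, and those of *Serpina3k* (log2 0.80) and *Acsl1* (0.64) with scaling to total counts.

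Chemokines and inflammatory cytokines were called mostly lower. Of 17 tested, 7 were lower and 1 higher, with a median log2 of -0.76, and 7 others were too low to test. *Il1b*, the cytokine interleukin-1β, had 135, 24.5 and 39.9 normalized counts in zinc-PBS and 0, 4.45 and 0.962 in zinc-Dex (log2 -5.23, adjusted p 5.57e-06, and log2 -4.19 without zinc-PBS replicate 1). *Ccl2*, a monocyte attractant, had 22.6, 11.4 and 18.1 and then 2.18, 0 and 0.962, which is at least 5.50-fold lower when set against 3 reads per zinc-Dex library. *Cxcl11* had 31.7, 27.2 and 34.4 and then 1.09, 6.68 and 4.81 (log2 -2.89), and *Csf1*, a macrophage growth factor, had 221, 169 and 217 and then 65.3, 73.5 and 83.7 (-1.44). Unlike *Cxcl1* and *Cxcl10*, *Cxcl11* and *Csf1* were even across the zinc-PBS livers, and without zinc-PBS replicate 1 their log2 fold changes were -2.87 and -1.38. *Ccl9*, a macrophage chemokine, was the 1 member called higher, with 1237, 1092 and 1099 and then 2201, 1907 and 2081 (log2 0.85), and this call was lost with scaling to total counts.

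The NF-κB list of subunits, inhibitors and early targets was also called mostly lower, and part of it rested on 1 liver. Of 18 tested genes, 7 were called lower and 1 higher, and without zinc-PBS replicate 1 these counts were 4 and 2 and the median log2 moved from -0.78 to -0.38. *Tnfaip2*, a TNF-induced gene, had 813, 366 and 612 normalized counts in zinc-PBS and 55.5, 70.1 and 36.5 in zinc-Dex (log2 -3.47). *Icam1*, a leukocyte adhesion molecule, had 630.4, 134 and 148 and then 30.5, 31.2 and 34.6 (log2 -3.24, and -2.13 without zinc-PBS replicate 1). *Bcl3* and *Nfkbie*, both of the IκB family, fell as well (-2.20 and -1.88). The subunit genes *Relb* and *Nfkb2* fell (-1.52 and -0.86) and, with *Tnfaip3*, lost their calls without zinc-PBS replicate 1 (*Relb* -0.87 and *Nfkb2* -0.47). That of *Nfkb2* was also lost without zinc-Dex replicate 2. *Vcam1*, another adhesion molecule, rose, with 368, 268 and 244 and then 831, 877 and 828 (log2 1.53). *Nfkbia*, which encodes the main NF-κB inhibitor IκBα, had 1143, 302 and 372 and then 1229, 1144 and 1225, and was called without zinc-PBS replicate 1 (log2 1.83, adjusted p 2.67e-33) but not with it (0.99, 0.0906), and edgeR called it with all 6 livers.

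Acute phase genes, which hepatocytes secrete in inflammation, rose in 7 of 26 cases with 0 lower. *Hp*, haptoglobin, had 27239, 19110.3 and 18738 normalized counts in zinc-PBS and 60229, 56137 and 55382 in zinc-Dex (log2 fold change 1.40, SE 0.146, adjusted p 7.46e-20). *Lcn2*, an iron-withholding protein, had 342, 84.2 and 73.4 and then 2481, 2002 and 2905 (log2 3.89), and *Saa4*, the constitutive serum amyloid A, had 4194, 2655 and 2070.3 and then 6089.7, 8479 and 8191 (1.35). *Serpina3n*, *Serpina3m*, *Orm3* and *Il1rn* also rose. The inducible amyloid gene *Saa1* behaved otherwise. *Saa1* had 2875, 251 and 236 and then 506, 609 and 689, so that zinc-Dex lay between zinc-PBS replicate 1 and the other 2, and DESeq2 set its p aside as an outlier. Without that liver its log2 fold change was 1.30, with an adjusted p of 0.212. The fibrinogen genes *Fga*, *Fgb* and *Fgg* were not called, at 0.15, 0.10 and -0.03. The median of the list was 0.03, and -0.19 with scaling to total counts.

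Among cytokine receptors and feedback inhibitors, 3 receptor genes rose and a pair of SOCS family genes fell. *Il1r1*, the interleukin-1 receptor, had 899, 407 and 406 normalized counts in zinc-PBS and 1915, 1909 and 1722 in zinc-Dex (log2 1.70). *Il6ra* had 1506, 812 and 1079 and then 3239, 3337 and 3278 (log2 1.54), and *Tnfrsf1b* had 343, 247 and 258 and then 689.8, 711 and 667 (1.29). The receptor antagonist *Il1rn* rose with them (log2 1.89). *Socs3*, which blocks JAK-STAT signalling, had 704, 84.2 and 146 and then 14.1, 22.3 and 14.4 (log2 -4.20, and -2.77 without zinc-PBS replicate 1), and *Cish*, of the same family, had 293, 384 and 170.3 and then 20.7, 21.1 and 64.4 (-2.99). Of the 21 tested genes of this list, 4 were called higher and 2 lower. Of 31 interferon-stimulated genes, 4 were called lower and 1 higher, with a median log2 of -0.39. Over all genes tested, 5.46% were called lower and 5.70% higher. At any fold, 18 of the 31 had an adjusted p under 0.05, against 24.3% of all genes tested. *Irf1* had 1830.4, 518 and 575 and then 74, 56.8 and 83.7 (log2 -3.77, and -2.93 without zinc-PBS replicate 1), *Mx2*, *Oasl1* and *Tap1* fell too, the last with a call lost without zinc-PBS replicate 3, and *Usp18*, which removes ISG15 and damps interferon signalling, rose from 148 ± 25.1 to 695 ± 122 (2.23). No gene of the 12 tested in the necroptosis list was called, among them *Mlkl* (-0.35), *Zbp1* (-0.31) and *Ripk3* (0.08). A list of 12 can lack calls at the share of 11.2% called over all genes tested.

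Immediate early genes, which respond within minutes to signals, were called in both directions. Of 23 tested, 6 were called higher and 8 lower, and 8 and 5 without zinc-PBS replicate 1. *Jun*, *Myc* and the small MAF factor *Maff* rose, *Maff* from 113, 32.4 and 34.4 to 623, 589.9 and 556 normalized counts (log2 3.30, and 4.14 without zinc-PBS replicate 1) and *Jun* from 258, 157 and 102 to 795, 751 and 599 (2.05). *Junb*, by contrast, had 2185, 363 and 566 and then 92.5, 114 and 97.1 (log2 -3.36), and -2.20 without zinc-PBS replicate 1. *Egr1* had 1559.6, 563 and 855 and then 194, 167 and 233 (log2 -2.33, adjusted p 0.0167), and its call was lost without zinc-PBS replicate 1 (adjusted p 0.134) and without zinc-Dex replicate 1 or 2. *Ier3* had 141, 8.77 and 13.6 and then 4.35, 8.9 and 5.77, overlapping groups, with a log2 fold change of -3.11, or -0.82 without zinc-PBS replicate 1, and its call was lost in 5 of 15 other fits. *Nab2*, *Ier5*, *Klf10*, *Phlda1* and *Zfp36l1* were called lower as well, and *Fosl2*, *Klf2* and *Klf4* higher. The call of *Zfp36l1* was lost without zinc-PBS replicate 1 (-0.78 against -0.83 with it), zinc-PBS replicate 3 or zinc-Dex replicate 2, that of *Fosl2* in 3 of 15 other fits, and that of *Klf2* with scaling to total counts. MAPK phosphatases moved in both directions too, with *Dusp4* and *Dusp8* higher (1.96 and 2.76) and *Dusp10* lower (-1.52). *Errfi1*, an inhibitor of the EGF receptor, rose from 7615 ± 3017 to 26358 ± 1075 (log2 1.79), and *Lrig1*, another such inhibitor, fell (-1.28).

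Inhibitors of differentiation and the BMP response formed the pathway list with the lowest median of the 27, at -1.03, with 7 of 15 tested genes called lower and 1 higher. This rank depends on how the lists were chosen and is a description. *Id3* had 996, 775 and 616 normalized counts in zinc-PBS and 141, 112 and 108 in zinc-Dex (log2 -2.72), and *Smad9*, a BMP signal transducer, had 227, 196 and 149 and then 34.8, 33.4 and 50 (-2.27). *Hes1*, a Notch target, had 263, 167 and 176 and then 30.5, 41.2 and 31.7 (log2 -2.55). The groups were well apart in each, and without zinc-PBS replicate 1 the list again had 7 genes lower and 1 higher. *Bambi*, a decoy receptor that inhibits BMP signalling, was the member that rose (log2 1.22). *Hamp*, the iron hormone hepcidin and a BMP target, had 3637, 6949 and 3578 and then 2743, 1573 and 2621 and was not called (log2 -1.03, adjusted p 0.0687).

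Growth arrest genes and alpha-arrestins were uneven within each family. *Gadd45g* had 217, 83.3 and 80.6 normalized counts in zinc-PBS and 2282, 2287 and 2148 in zinc-Dex (log2 4.14, and 4.77 without zinc-PBS replicate 1), *Gadd45b* had 189, 28.9 and 65.2 and then 1311, 1151 and 1289.5 (3.73), and *Gadd45a* fell from 82.4, 51.7 and 45.3 to 13.1, 7.79 and 17.3 (-2.22). *Arrdc2* rose by 1.90, whereas *Arrdc3* fell (-3.85), as did *Arrdc4*, from 209 ± 53.9 to 68.7 ± 2.05 normalized counts. *Txnip*, the thioredoxin-binding arrestin, rose by 0.86, a call lost in 3 of 15 other fits, with 0.78 without zinc-PBS replicate 1. Of the 16 tested, 6 were called higher and 3 lower. *Bcl6*, a transcriptional repressor, had 394, 81.5 and 142 and then 693, 807 and 429, and was not called (log2 1.64, adjusted p 0.0705), but was called without zinc-PBS replicate 1 (log2 2.52, adjusted p 0.00219) and with edgeR.

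Clock genes were called in both directions, 5 of 18 higher and 3 lower. *Ciart*, a repressor of the CLOCK-BMAL1 pair, had 13.6, 14 and 8.15 normalized counts in zinc-PBS and 236, 200.3 and 368 in zinc-Dex (log2 fold change 4.49, SE 0.327, adjusted p 7.62e-41). *Cry2* had 226, 242 and 278 and then 703, 647 and 677 (log2 1.44), and the repressor *Nfil3* had 215, 140.3 and 156 and then 675, 722 and 575 (1.95). *Nr1d1*, which encodes REV-ERBα, fell in every zinc-Dex liver, from 1227, 1099 and 1066 to 479, 377 and 353 (log2 -1.49), and *Bhlhe40* fell as well (-1.64). *Dbp*, an output gene of the clock, had 261, 287 and 270 and then a wide spread of 33.7, 7.79 and 108 (log2 -2.45, SE 0.914), and its call was lost in 5 of the 6 fits that left out 1 library. *Arntl* and *Clock*, the central activators, were not called (-0.33 and 0.34). The time of day of each injection is not in the labels, so the part of a time difference in these values was not tested.

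Among genes that handle zinc, the metallothioneins rose further with Dex from levels that zinc-water livers already had. *Mt1* (ENSMUSG00000031765, chromosome 8, 94179082 to 94180327), a metallothionein that binds zinc, had 6233, 3437 and 5684 normalized counts in zinc-PBS and 15103, 13303 and 12372 in zinc-Dex (log2 fold change 1.41, SE 0.224, adjusted p 6.91e-09). *Mt2* had 1417, 702 and 1395 and then 4249, 3886 and 3497 (log2 1.73). Both rose in all 3 zinc-Dex livers beyond the zinc-PBS range. *Slc30a1*, the zinc exporter ZnT1, had 860.4, 869 and 990.3 and then 446, 426 and 396 (log2 -1.10), so it fell while the metallothioneins rose. *Slc39a14*, the importer ZIP14, had 3642, 2877 and 3265 and then 5666, 5036 and 6529 (log2 0.82), and its call was lost in 3 of 15 other fits, scaling to total counts among them. *Slc39a4* and *Mtf1* were not called (log2 -0.14 and 0.29). Of the 10 tested genes, 3 were called higher and 1 lower. Opposite-strand genes overlap exons of *Mt2* and *Slc30a1*, and the strand setting of the counting is not given in the sources used here, so their own levels are uncertain.

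No housekeeping gene of the lists was called. None of 18 oxidative phosphorylation genes and none of 19 cytosolic ribosomal protein genes was called, against 11.2% of all genes tested. Their medians were 0.19 and 0.18 on the log2 scale, and -0.03 and -0.04 with scaling to total counts. At any fold, 8 of the 18 and 10 of the 19 had an adjusted p under 0.05, against 24.3% of all genes tested. The lack of calls is thus not a lack of small changes relative to the median gene. Of 18 heat shock and endoplasmic reticulum stress genes, 3 were called higher and 1 lower. *Herpud1*, a factor of protein clearance from the endoplasmic reticulum, had 4846, 3671 and 4150.5 normalized counts in zinc-PBS and 11114, 10653 and 10728 in zinc-Dex (log2 1.36). *Xbp1*, a factor of the unfolded protein response, had 3728, 3671 and 3027 and then 1345, 1642 and 1585 (log2 -1.19), and *Hspa1b*, an inducible HSP70, rose by 1.65. *Nfe2l2*, which encodes the antioxidant factor NRF2, had 832, 734 and 728 and then 481, 449 and 472 and stayed under the fold change threshold (log2 -0.71, adjusted p 2e-06). Of its 12 tested listed genes, *Osgin1* fell and *Srxn1* rose, the latter with a call lost under scaling to total counts. With scaling to total counts the median also turned negative for the metal list (-0.09) and the heat shock list (-0.13), the chemokine list had 9 genes lower and 0 higher, the clock list 7 lower and 3 higher, the interferon list 9 lower and 1 higher, the cytokine receptor list 5 lower and 4 higher, and the immediate early list 9 lower and 4 higher. The same uncertainty from opposite-strand genes holds for *Acnat2*, *Acot3*, *Acsl1*, *Alas1*, *Arntl*, *Bcl3*, *Bcl6*, *Bhlhe40*, *Cab39l*, *Cdadc1*, *Cdkn1a*, *Chd1l*, *Cish*, *Cry2*, *Cxcl10*, *Cxcl11*, *Dbp*, *Dusp1*, *Dusp8*, *Fgg*, *Foxo1*, *Foxq1*, *Gadd45a*, *Galnt11*, *Gm16573*, *Gpr182*, *Greb1* and *Icam1*. It also holds for *Il1b*, *Il6ra*, *Irf1*, *Irs1*, *Irs2*, *Jun*, *Junb*, *Lrig1*, *Mdm1*, *Mtf1*, *Nab2*, *Nfkb2*, *Nr1d1*, *Oasl1*, *Phlda1*, *Plin4*, *Sds*, *Slc25a25*, *Slc7a2*, *Srebf1*, *Tap1*, *Tnfaip2*, *Txnip*, *Usp18*, *Vcam1*, *Vil1*, *Zfp36* and *Zfp36l1*.

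**Figure D2:**
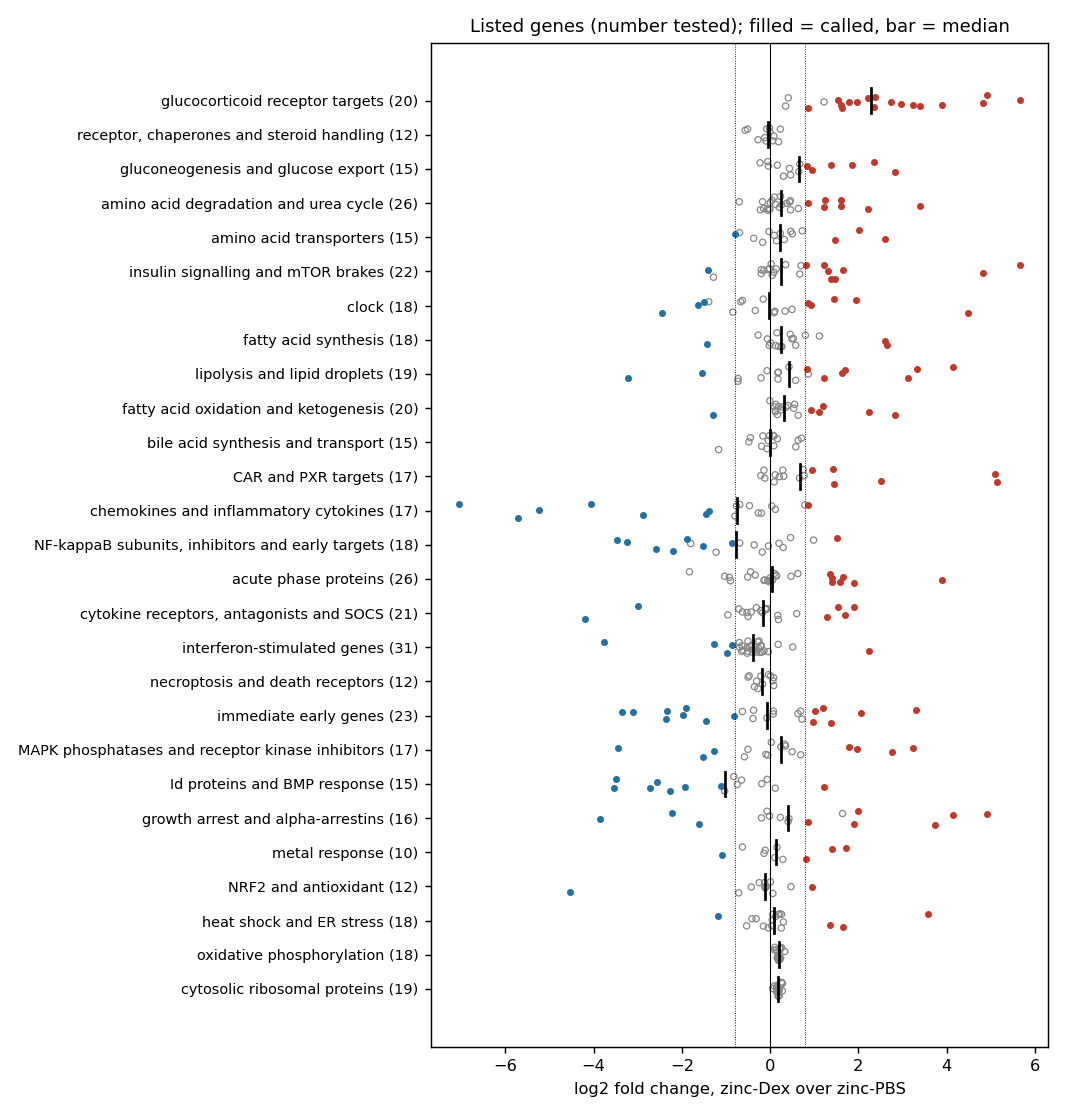
Log2 fold change of zinc-Dex over zinc-PBS for each tested member of the 27 gene lists, with called genes filled, other genes open, dotted lines at -0.8 and 0.8 and a bar at the median. The glucocorticoid receptor targets lie mostly to the right with a median of 2.29, the Id and BMP list to the left with a median of -1.03, and the ribosomal and oxidative phosphorylation genes gather near 0.

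Cell type markers were set beside these results. The 8 hepatocyte markers summed to 1315332 to 1480494 normalized counts in zinc-PBS and 1659371 to 1781650 in zinc-Dex, so the groups were apart. None of the 8 was called, and their median log2 was 0.17, or -0.06 with scaling to total counts. Kupffer cell markers summed to 6846 to 7207 normalized counts in zinc-PBS and 6568 to 7319 in zinc-Dex, and none of the 9 was called. Neutrophil markers summed to 159 in zinc-PBS replicate 1 and to 41.2 to 93.6 in the other 5 livers. Only 3 of those 9 markers passed the filter on low counts, and *Camp* was at 0 in all 6. Sinusoidal endothelial markers summed to 4898 to 5111 and 5014 to 5207, but single members moved in opposite directions. *Lyve1*, a hyaluronan receptor, had 149, 181 and 116 and then 1109.8, 982 and 1040.5 (log2 2.81), while *Kdr*, the VEGF receptor, and *Gpr182* fell (log2 -1.26 and -0.88).

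Stellate cell markers summed to 5206 to 5362 in zinc-PBS and 5927 to 7055 in zinc-Dex, with *Pdgfrb* alone called (log2 -0.99). Red blood cell markers summed to 782 to 971 and then 1364 to 1518, so the groups were apart, and *Hba-a1* was called higher (log2 0.95). Monocyte markers summed to 165 to 179 and 158 to 202, and *Ccr2* fell (log2 -1.80). Lymphocyte markers summed to 140 to 228 and 101 to 147, and cholangiocyte markers to 668 to 1170.5 and 954 to 1173, with *Sox9* called lower (-0.82), a call lost in 7 of 11 other fits. Of 8 pancreas markers, 5 were at 0 in all 6 livers. Gut epithelium markers summed to 666 to 921 in zinc-PBS and 547 to 674 in zinc-Dex, and *Lyz1* and *Vil1* were called lower from low levels. The part of these cells in the results above was not tested.

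The dependence on zinc-PBS replicate 1 was then measured. Of the 1480 calls, 158 were lost without this liver, 131 others were gained, and no called gene changed sign. Leaving out another of the 6 livers cost 179 to 217 calls and gained 68 to 110, so the number lost was not larger for zinc-PBS replicate 1. The size of effects was more sensitive to it. The log2 fold changes of 36 called genes moved by more than 1.5-fold without this liver, against 10 to 23 for each of the other 5. Among the gains, 71 genes were called higher, compared with 25 to 33 when another liver was left out.

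The 45 genes that were high in zinc-PBS replicate 1 contained both kinds of Dex-responsive gene. With this liver 14 were called higher, 11 lower and 20 in neither direction, and without it 21 were higher, 11 lower and 13 not called. Over all genes tested, the shares were 5.70% higher and 5.46% lower with it, and 5.87% and 5.09% without it. The 45 genes were picked by their zinc-PBS levels, which the fits also use, so their counts are a description and no test. Genes that Dex lowers (*Cxcl1*, *Cxcl10*, *Socs3*, *Icam1*, *Junb*, *Irf1* and *Tlr2*) and genes that Dex raises (*Lcn2*, *Gadd45b*, *Gadd45g*, *Maff*, *Lpin1*, *Pck1* and *Il1rn*) were thus high together in 1 liver of the PBS group. *Lcn2* had a log2 fold change of 3.89 with this liver and 4.97 without it, and that of *Gadd45b* moved from 3.73 to 4.74. In the opposite sense *Tlr2*, a receptor of bacterial lipoproteins, had 315, 40.3 and 77.9 normalized counts in zinc-PBS and 21.8, 15.6 and 15.4 in zinc-Dex, and moved from -3.04 to -1.75.

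For some genes the call changed without this liver. *Tnfaip3*, which encodes the NF-κB inhibitor A20, had 728, 44.7 and 81.5 normalized counts in zinc-PBS and 42.4, 56.8 and 44.2 in zinc-Dex, so replicates 2 and 3 lay in or near the zinc-Dex range. It was called lower with replicate 1 (log2 -2.57, adjusted p 0.0144) and not without it (-0.40, 0.443), and its call was lost in 4 further fits that kept this liver. *Nfkbiz*, an atypical IκB, had 921, 82.4 and 132 and then 87, 104 and 136, with log2 fold changes of -1.80 with this liver and 0.02 without it, neither called. *Zfp36*, an mRNA decay factor for cytokine transcripts, had 1899, 628 and 761 and then 1863, 1806 and 1639.5 and was called higher only without it (log2 1.35, adjusted p 4.25e-09). *Btg2*, an antiproliferative gene, followed the same pattern, with 0.63 and then 1.40. Other values that moved with this liver are the neutrophil marker sum given above and *Mup7*, a major urinary protein gene at 476, 10.5 and 20.8 in zinc-PBS. Their part in these differences was not tested.

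**Figure D3:**
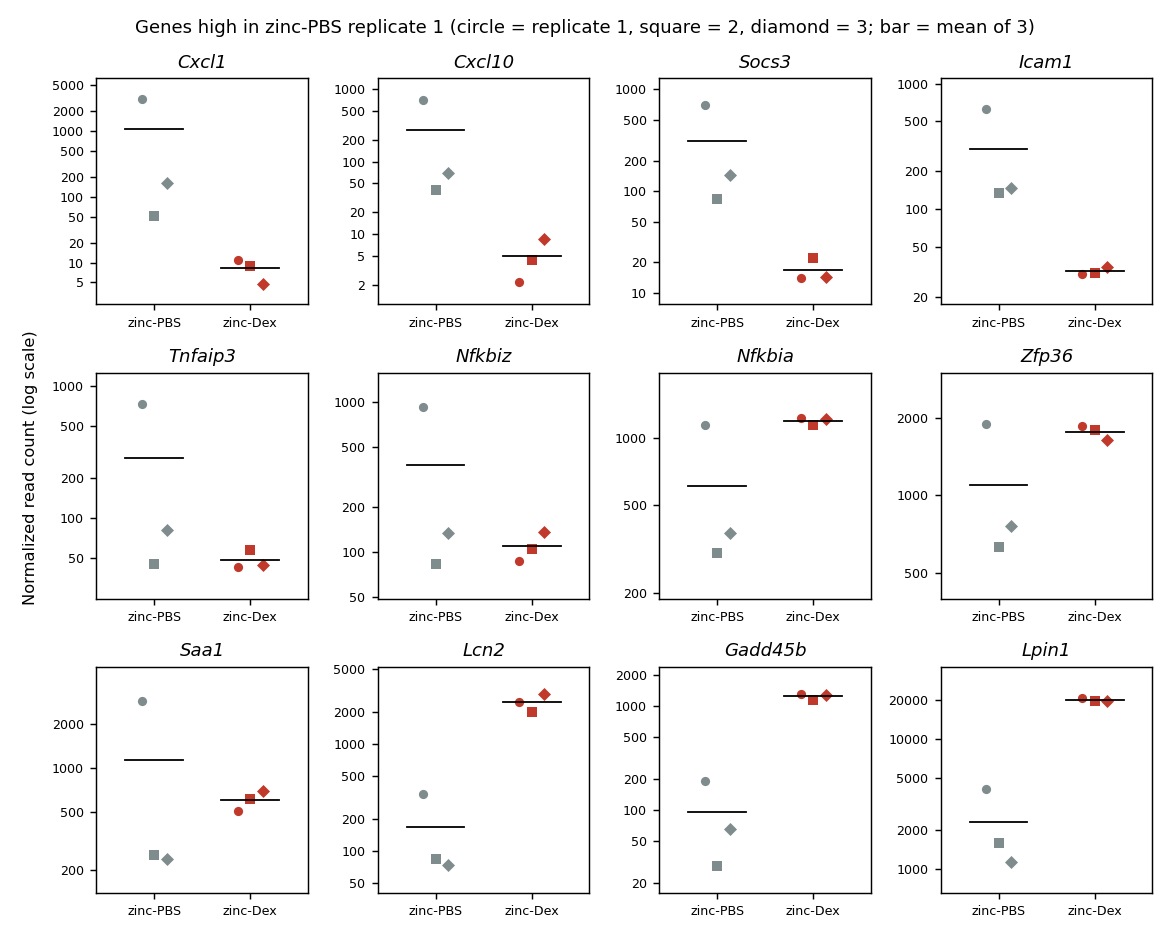
Normalized read counts (log axes) of 12 genes in the 3 zinc-PBS and 3 zinc-Dex livers, with 1 point per liver, shapes for replicates and a bar at the mean. In every panel the zinc-PBS circle, replicate 1, lies above the other 2 zinc-PBS livers, and for *Nfkbia* and *Zfp36* it lies at the zinc-Dex level.

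**Figure D4:**
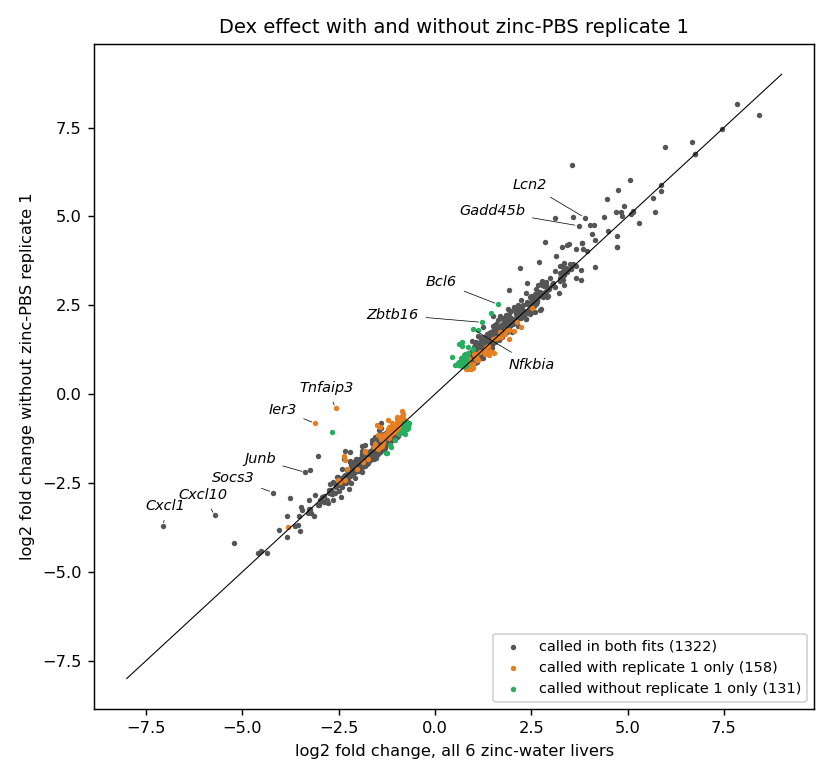
Log2 fold change from all 6 zinc-water livers (horizontal axis) against that without zinc-PBS replicate 1 (vertical axis), for genes called in either fit, with the line of equality. Among 1322 genes called in both fits and those called in 1, *Cxcl1*, *Cxcl10* and *Tnfaip3* lie above it on the left, and *Lcn2* and *Gadd45b* lie above it on the right.

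Last, the Dex effect in zinc-water livers was tested against that in plain-water livers, a comparison of pairs of groups that share no library. In plain water 1383 genes were called (10.4%), 685 higher (5.17%) and 698 lower (5.27%). The interaction, which is the log2 fold change in zinc minus that in plain water, was called for 6 genes, 0.0453% of those tested (2 higher, 0.0151%, and 4 lower, 0.0302%), and 460 had an unadjusted p under 0.05. The test found 3 genes with edgeR, and 4 to 23 when 1 of the 12 libraries was left out, the highest number without zinc-Dex replicate 2. A gene outside these calls is not shown to respond alike. Of the 1480 genes called in zinc, 15 had an opposite sign in plain water. Of the 756 called higher in zinc, 659 were also higher in plain water with a DESeq2 adjusted p under 0.05. Of the 724 called lower, 547 were also lower there by the same limit.

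*Mt1* had 209.6, 403 and 437 normalized counts in water-PBS and 7587, 7590.3 and 7489 in water-Dex, a log2 fold change of 4.43 against 1.41 in zinc. *Mt2* had 13.7, 44.7 and 25.4 and then 2438, 2234 and 2518, a change of 6.41 against 1.73. The zinc-PBS values of both genes lay far above those of water-PBS, and the zinc-Dex values above those of water-Dex, so the smaller fold in zinc went with a higher start. The interactions were -3.02 (SE 0.32, adjusted p 4.22e-17) and -4.68 (SE 0.511, adjusted p 2.82e-16), and both calls held in every alternative run. They compare folds and not counts. Mean counts of *Mt1* went from 350 to 7556 in plain water and from 5118 to 13593 in zinc. Those of *Mt2* went from 27.9 to 2397 and from 1171 to 3877, so in counts neither rise was smaller in zinc.

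*Slc25a25*, a mitochondrial ATP-magnesium carrier, had 512, 597 and 523 in zinc-PBS and 2645, 3868 and 3356 in zinc-Dex, and 1221, 2172 and 1547 and then 3042, 3968 and 3732 in plain water. Its levels after Dex overlapped between zinc and plain water, and its levels before Dex did not, with zinc-PBS the lower, and the call was lost with edgeR (interaction 1.48, SE 0.268, adjusted p 9.32e-05). *Phlda1* had 732, 399 and 304 and then 126, 129 and 129.8 in zinc, and 134, 196 and 148 and then 149, 124 and 124 in plain water (interaction -1.63, adjusted p 0.0173), a call lost in 6 of 20 other fits. The pseudogene *Mup-ps13* had 1546, 1350.2 and 1162 and then 613, 723 and 662 in zinc, and 1430.1, 1048 and 1313 and then 1299, 1476 and 1518 in plain water, so its zinc-Dex livers were the lowest of the 4 groups (interaction -1.20, adjusted p 2e-06). It belongs to a family of near-identical copies, so its level is uncertain. *Fam198a* fell in plain water (log2 -2.34) and had a log2 fold change of -0.78 in zinc, under the threshold (interaction 1.56, adjusted p 0.0405), and this call was lost in 11 of 20 other fits.

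**Figure D5:**
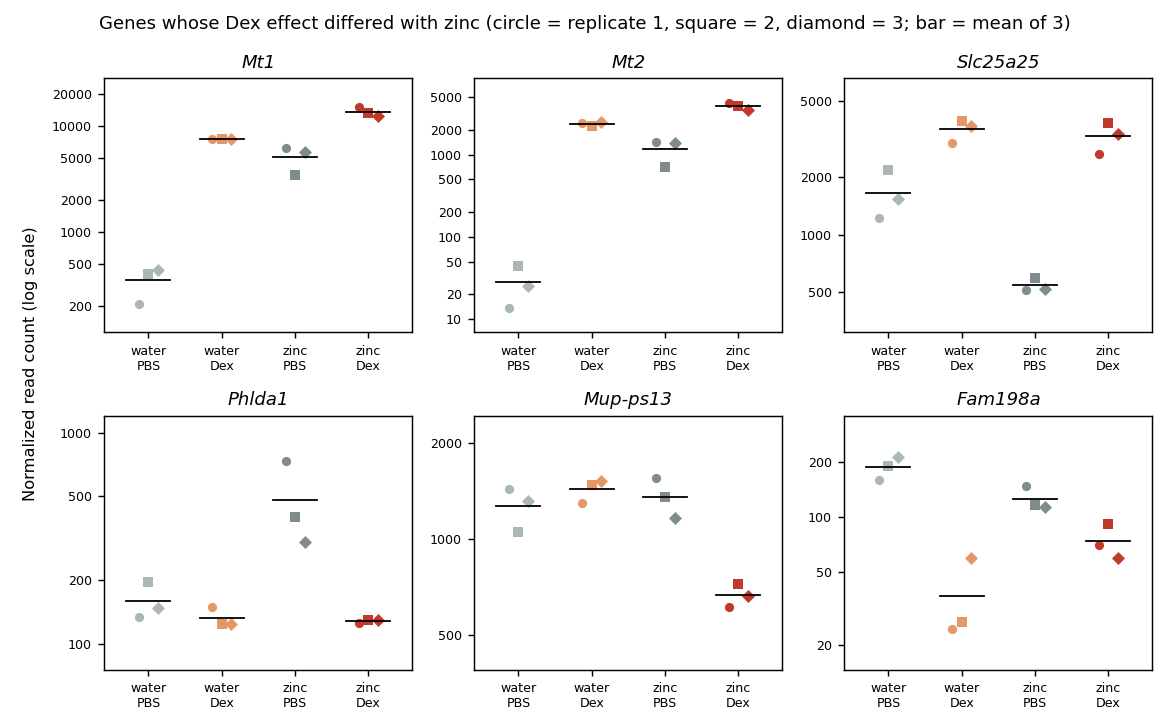
Normalized read counts (log axes) of the 6 genes whose Dex effect differed between zinc and plain water, in the 4 groups of 3 livers, with 1 point per liver and a bar at the mean. *Mt1* and *Mt2* start far higher in zinc-PBS than in water-PBS, *Slc25a25* starts lower, and *Phlda1* is highest in zinc-PBS.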

How the data were processed

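Liver RNA from 12 mice was made into stranded libraries and read single-end on a NextSeq 500. Per the labels and methods, the authors trimmed with Trimmomatic, mapped to mm10 with HISAT2 2.0.4 and ran featureCounts without multimapping reads. The deposited table holds raw counts per gene with no normalization. The annotation release and strand setting are not given in the sources used here. Symbols and coordinates came from GENCODE M21 (GRCm38) for 54809 of 54838 identifiers. Replicates of a group differed by more than counting noise.

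DESeq2 1.42.0 (R 4.3.3, Wald test, all 12 libraries, 1 coefficient per group) was run at an FDR of 0.05 with a log2 limit of 0.8, after testing on simulated data. Members, gene lists and rules were chosen with earlier results of these data known. Genes were named by rule: the 15 most raised and 15 most lowered calls (mean 50 or higher, groups apart), the 10 most abundant calls, list members, the 10 calls that moved most without zinc-PBS replicate 1, and interaction calls. *Map3k6*, *Acnat2*, *Slc10a6*, *Galnt11*, *Gm16573*, *Mup7* and genes named only in the closing observations were picked after their values were seen. Alternatives were edgeR 4.0.16, TMM factors, scaling to total counts (added after seeing the data), other filters, a fit of the 6 libraries, a replicate term, and leaving out each library. Floors cover counting error only. Results of 1 list member are not reported here.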

Additional observations from a re-analysis of the deposited data

Results flagged for a closer look

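The genes below had a Dex effect that differed between zinc and plain water by a test of the difference itself (DESeq2 interaction contrast). Each value is the log2 fold change in zinc minus that in plain water. It was -4.68 for *Mt2* and -3.02 for *Mt1*, and both calls held in all alternatives run. It was -1.63 for *Phlda1*, -1.20 for *Mup-ps13*, 1.48 for *Slc25a25* and 1.56 for *Fam198a*. With edgeR, 3 of these 6 calls remained. The DESeq2 filter that sets aside the p of a gene with an outlying count was on, and it left 5 genes without a p. No other test of single outlying samples was made.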

How the results depend on the processing

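With no fold change threshold the counts of called genes were 3222 in all, 1742 higher and 1480 lower, and with scaling to total counts 1292 genes were lower. Leaving out 1 of the 6 livers gave 1331 to 1453 calls, 700 to 778 higher and 631 to 687 lower. The remaining fits, with edgeR (1578), TMM factors (1485), other filters, only the 6 libraries (1423) or a replicate block (1401), stayed within 1.5 times the 1480 calls. The interaction count was 6, with 3 by edgeR and 4 to 23 when 1 of the 12 libraries was left out (23 without zinc-Dex replicate 2, and 10 without water-Dex replicate 3 or any 1 zinc-PBS replicate), and 7 with the replicate block. Whether same-numbered livers shared a cage or day is not in the labels. Deviations of same-numbered livers had correlations of 0.041, -0.138 and 0.075 across genes. Those of different numbers ran from -0.153 to 0.111, and not every liver correlated best with its own number. With 3 livers per group these values cannot decide it. Of 156 called genes of the lists and the rule, 126 kept their call in all 15 alternative fits of the Dex comparison, 30 lost it in at least 1, and none reversed. Scaling to total counts cost 17 of these calls and added 29. The causes were not tested. At these depths, genes with few reads in every library could not be compared, and 12936 genes with a count fell under the filter.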

Other observations

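The share of genes called differed by annotated gene class. Of 12072 protein-coding genes tested, 11.2% were called, against 18.1% of 199 lincRNA genes, 15.9% of 157 antisense genes and 2.99% of 469 processed pseudogenes. These are descriptions with no test, and low counts and copies of coding genes differ between the classes. Of the called genes, 43 had no library above 3 reads in 1 of the groups, 29 of them higher and 14 lower with Dex. *Tekt4*, a cilium protein gene with 0 reads in each zinc-PBS library, was at least 10.8-fold higher, and *Greb1*, a hormone-responsive gene with 1, 2 and 0 reads, at least 19.6-fold higher.

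Some strongly raised genes are neighbours, an observation made after their values were seen. On chromosome 14, *Phf11c* (59380833 to 59395381), *Setdb2* (59402009 to 59440884), which encodes a histone methyltransferase, and *Cab39l* (59440972 to 59585764) follow one another. *Setdb2* had 238, 158 and 140.4 normalized counts in zinc-PBS and 2667, 2421 and 2566 in zinc-Dex (log2 3.84), and *Cab39l* had 1001, 974 and 926 and then 2359.9, 2538 and 2255 (1.30). *Phf11d* before them and *Cdadc1*, which overlaps *Cab39l* on the opposite strand, were not called, at 0.72 and -0.03. On chromosome 12, *Serpina3k*, *Serpina3m* and *Serpina3n* rose (1.03, 1.65 and 1.39), while *Serpina3f* and *Serpina3g* of the same cluster were not called (0.60 and 0.06), but *Serpina3f* was called without zinc-PBS replicate 1 (0.87, DESeq2 adjusted p 0.00325). Members of this cluster are close copies, so their levels are uncertain. On chromosome 3, *Chd1l* rose beside *Fmo5*, with 104, 81.5 and 82.4 and then 486, 399.6 and 402 (log2 2.26). *Prkab2*, on the other side of *Fmo5*, was not called (-0.29), and an opposite-strand gene overlaps its exons. The cause of these neighbourhoods was not tested.

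*Serpina1e*, a serine protease inhibitor gene with near-identical copies, stood at 9607, 2844 and 3574 normalized counts in zinc-PBS and 3161, 10362 and 3265 in zinc-Dex. It was high in 1 liver of each group, zinc-PBS replicate 1 and zinc-Dex replicate 2, and was not called.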
